A study of Mus musculus with 16 samples.

Results

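The mitochondrial ribosomal protein genes were taken as every feature whose symbol begins with Mrpl or Mrps followed by a number, together with Mrp63, leaving out symbols marked as pseudogenes. This gave 74 genes of the 36829 features listed, 47 named for the large subunit (Mrpl and Mrp63) and 27 named for the small subunit (Mrps). RNA was measured by RNAseq in femoral cortical bone of female C57Bl/6 mice, 11 weeks old, in 8 mice after hindlimb unloading for 7 days (HLU) and in 8 control mice with normal weightbearing. Unloading was by suspension of the tail, the ends of the bones were cut off and the marrow was flushed before freezing, and each mouse gave 1 library. The labels name no transgene and no drug, and 1 sex and 1 time point were studied. The 4 pseudogene features left out (Mrpl23-ps1, Mrpl48-ps, Mrps36-ps1 and Mrps36-ps2) had means of 0.0242 to 0.62 RPKM, and reads that their near-identical parent genes Mrpl23, Mrpl48 and Mrps36 share with them could have been counted on either.

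Mitochondria keep a ribosome of their own, which translates the few proteins encoded in mitochondrial DNA, all of them subunits of the respiratory chain and of ATP synthase. Its rRNA comes from the mitochondrial genome, whereas every protein of its large and small subunits is encoded in the nucleus, made in the cytosol and imported. Some of these proteins have a bacterial counterpart and form the conserved core, and others are particular to mitochondria and coat the outside. Bone cells and blood-forming cells both depend on this machinery for oxidative phosphorylation.

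The libraries held 7067512 (Control 2) to 21363584 (HLU 6) reads by the divisor that the RPKM values imply, and Control 2 and HLU 5 were the smallest. HLU 4, Control 4 and Control 1 stood apart from the other 13 libraries by low values of GC-rich transcripts, described below, and the comparison between groups and the correlations between mice are given with and without them. The tissue label was checked against marker genes. All 7 osteocyte markers and all 8 osteoblast markers were above 0 in every mouse, and so were all 10 erythroid and all 7 granulocyte markers measured. The summed level of the erythroid markers ranged from 3095 to 8714 RPKM in control and from 1681 to 4524 RPKM in HLU mice, and that of the granulocyte markers from 17492 to 37726 and from 12325 to 44371 RPKM. The bone samples therefore held RNA of blood-forming cells in every mouse, and in bulk RNA a smaller number of cells of a type and less RNA per cell cannot be told apart.

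All 74 genes were detected in every mouse, and all 74 reached the level required for testing, an average of 0.5 RPKM across the mice, as did 16973 features in all. RPKM scales the reads on a gene to its length and to the reads of the library. Levels of different genes are therefore comparable only as far as the length used fits the transcript, which is taken up below. Mean levels ranged from 0.79 to 46.5 RPKM with a median of 9.91 RPKM, and 37 genes were above 10 RPKM while 7 were below 3 RPKM. The median level was 10.4 RPKM for the large subunit genes and 6.03 RPKM for the small subunit genes, although their ranges overlapped almost entirely, from 0.79 to 39.3 RPKM and from 1.82 to 46.5 RPKM.

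The highest level in RPKM was that of Mrps16, the counterpart of bacterial S16 in the small subunit. It lay between 28.1 and 60.7 RPKM in control mice (median 53.6) and between 34.1 and 56.3 RPKM in HLU mice (median 39.9). It was followed by Mrpl52, a mitochondria-specific protein of the large subunit, at a mean of 39.3 RPKM over the 16 mice. Next came Mrpl32, a large subunit protein that is cut to its mature form by the m-AAA protease, at 36.7 RPKM. Mrpl11, which forms the base of the stalk where translation factors dock, and Mrpl18, a protein of the central protuberance, followed at 32.4 and 27.8 RPKM. These neighbours in the order were not separated beyond the spread between mice, since the SD of Mrps16 in control mice alone was 12.3 RPKM and that of Mrpl32 was 14.6 RPKM.

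At the other end, Mrpl23, which lines the exit of the peptide tunnel, had a mean of 0.79 RPKM and rested on only 10 to 41 reads per mouse. The next 4 were Mrps10, a protein of the small subunit head, at 1.82 RPKM, Mrps11 at 1.98 RPKM, Mrps5 at 2.52 RPKM and Mrps36 at 2.79 RPKM. RPKM also depends on the gene length used by the authors, which was 11985 bases for Mrps10 and 566 bases for Mrps16 when worked out from the values. The median number of reads per mouse was 364 on Mrps10 and 348 on Mrps16, so their gap in RPKM follows the length used. For 60 of the 74 genes this length was larger than the longest coding transcript of GENCODE M21. Mrps36 carries a small subunit name but is now known as a component of the 2-oxoglutarate dehydrogenase complex.

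The first comparison asked whether transcript abundance of these genes changed with unloading. It did not pass correction for multiple testing at any of the 74 genes, with a smallest adjusted p of 0.744 (limma, Benjamini-Hochberg adjustment over all 16973 features). The mean log2 level was lower in HLU mice for 63 genes and higher for 11, and the median log2 fold change of the 74 genes was -0.10, the same as the median over all features tested (-0.10). Genes higher in HLU were 14.9% of the 74 against 32.1% of all features. This split depended on the scaling between libraries, since 33, 46 and 50 of the 74 genes were higher after median-of-ratios scaling, after quantile normalization and after scaling to features outside the mitochondrial genome, with member medians of -0.02, 0.02 and 0.04 beside -0.02, 0.00 and 0.03 for all features.

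At an unadjusted p under 0.05 with a change of at least 1.2-fold, 2 of the 74 genes (2.7%) were lower in HLU mice, where the share over all features was 4.76%, and 0 were higher, where it was 1.11%. With limma, 2 genes (2.7%) had an unadjusted p under 0.05 regardless of fold, beside 6.18% of all features. At p and fold together, limma-voom on the recovered reads called the same number, 2 lower and 0 higher, beside 915 lower and 183 higher of all 16973 features. The exact permutation test, run over all 12870 splits of the mice, gave an unadjusted p under 0.05 for 4 of the 74 genes, beside 6.35% of all features. The values of the control and HLU mice overlapped for every member, which left 0 of 74 genes with separated groups against 0.0295% of all features. On the scale of mean log2(RPKM + 0.1), 4 genes differed by 1.2-fold or more, and all 4 were lower in HLU mice. The share of all features past this fold regardless of p was not worked out. All features were themselves shifted toward lower values in HLU mice, with a median log2 fold change of -0.10.

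The count depended on the 3 libraries that stood apart, 2 of which were control mice with low levels of these genes. Without HLU 4, Control 4 and Control 1, 12 of the 74 genes (16.2%) were lower at the unadjusted threshold, where the share over all features was 5.41%, and 0 were higher, where it was 1.01%. The 12 genes were Mrp63, Mrpl21, Mrpl28, Mrpl36, Mrpl47, Mrpl52, Mrpl54, Mrps6, Mrps12, Mrps16, Mrps17 and Mrps26, from both subunits. The mean was higher in HLU mice for 9 of the 74 genes beside 34.4% of all features, and the median log2 fold change was -0.18 for the 74 genes beside -0.09 for all features. None passed correction over all features, with a smallest adjusted p of 0.557 by limma. Mrp63 had a log2 fold change of -0.52 (SE 0.12, limma unadjusted p = 0.000657) without these mice. This comparison was chosen after the values were seen.

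**Figure D1:**
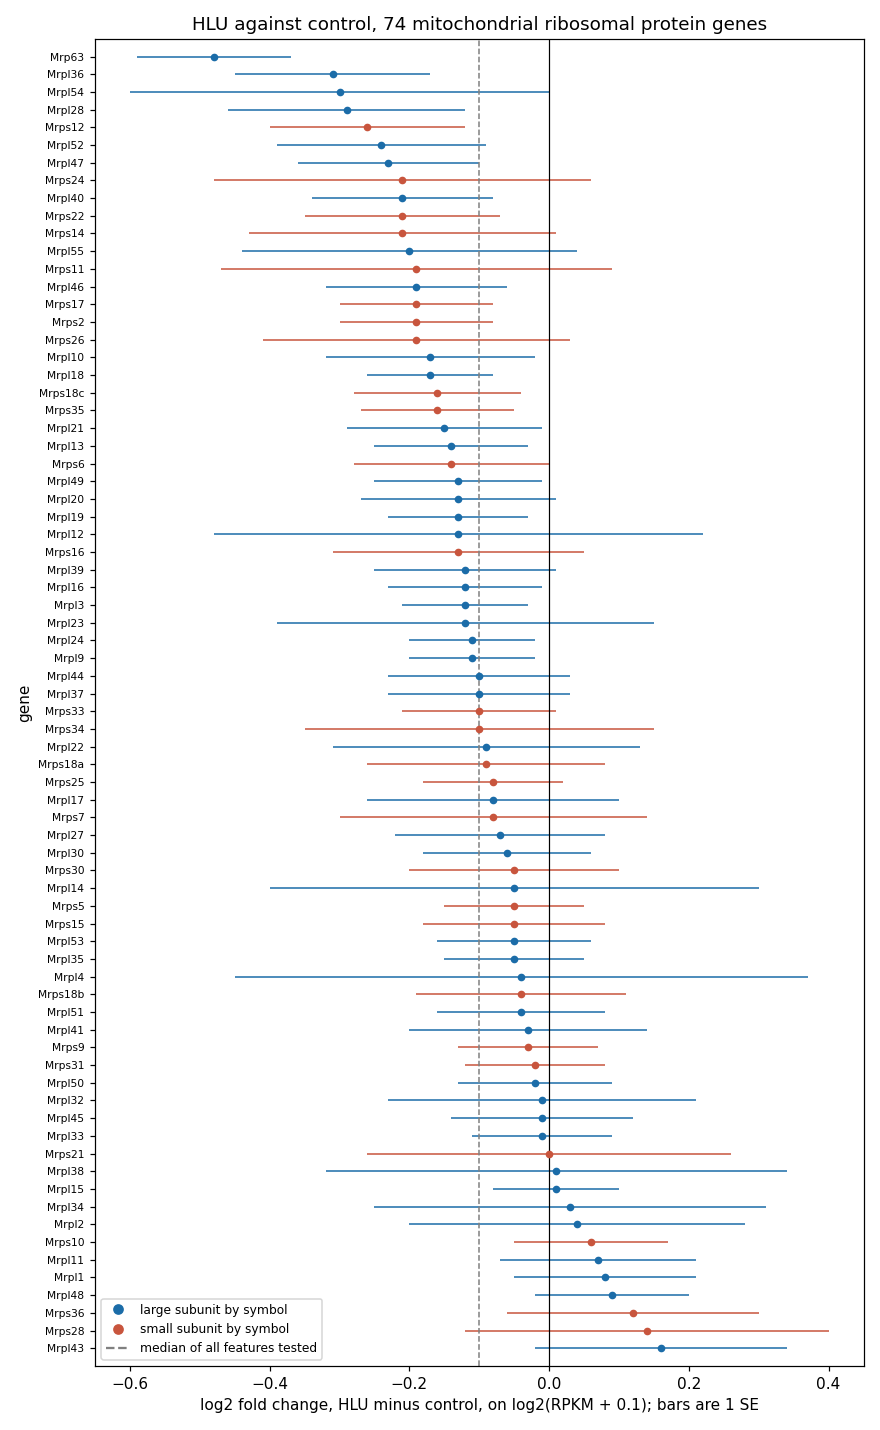
Log2 fold change of each of the 74 genes (HLU minus control, on log2(RPKM + 0.1), points) with 1 SE (bars), blue for genes named for the large and red for genes named for the small subunit. The points run from -0.48 (Mrp63) to 0.16 (Mrpl43) around the dashed line, the median of all features tested at -0.10.

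The lowest p belonged to Mrp63, also called Mrpl57, a small protein of the large subunit that is particular to mitochondria. Its level was 4.38 to 6.29 RPKM in control mice (median 5.7) and 3.21 to 5.22 RPKM in HLU mice (median 3.79). All 8 HLU mice lay below the control median and 6 lay below every control mouse. HLU 4 and HLU 8, at 5.22 and 4.79 RPKM, overlapped the control range, whose lowest mouse was Control 3. The mean was 5.56 ± 0.612 RPKM in control mice and 3.99 ± 0.681 RPKM after HLU (SD, n = 8 per group), which gave a log2 fold change of -0.48 (SE 0.11, limma unadjusted p = 0.000611, adjusted p = 0.744). The two-sided exact permutation p was 0.00109 where 0.000155 is the smallest possible, and 0.743 after adjustment over all features. Each mouse had 73 to 255 reads on this gene. It stayed past the unadjusted threshold and 1.2-fold in each of the 16 fits that left out 1 mouse. Ska3, a spindle and kinetochore protein, starts 49 bases from Mrp63 on the other strand and had a log2 fold change of -0.44 (SE 0.23, limma unadjusted p = 0.0746). The levels of this pair correlated at r = 0.38 over 16 mice centred within groups and at 0.53 without the 3 libraries that stood apart. After the GC trend described below was removed, these values were 0.03 and 0.01.

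Mrpl36, the counterpart of a small zinc-binding protein of the bacterial large subunit, was the other gene past this threshold. It ranged from 22.3 to 34.9 RPKM in control mice (median 25.7) and from 15.1 to 33.6 RPKM in HLU mice (median 21.7). HLU 4 was as high as the upper control mice, and 5 of the 8 HLU mice were below every control. The log2 fold change was -0.31 (SE 0.14, limma unadjusted p = 0.0433, adjusted p = 0.744). It was past the threshold in 7 of the 16 fits that left out 1 mouse, and was lost without any 1 of Control 2, Control 4, Control 6, Control 8, HLU 1, HLU 2, HLU 3, HLU 6 or HLU 7, with p-values of up to 0.0959 by limma. After median-of-ratios scaling its log2 fold change was -0.23 (unadjusted p = 0.142), and Mrp63, at -0.39 (unadjusted p = 0.00429), was the 1 gene of 74 left past the threshold (1 lower and 0 higher), beside 2.36% lower and 2.22% higher of all features in that fit. The gene overlaps Ndufs6 on the other strand, whose start lies 29 bases away. The study's methods describe no strand-specific step, so reads in the overlap could have been counted on either gene. Ndufs6, a subunit of respiratory complex I, had 12.3 ± 5.83 RPKM in control mice and 10.9 ± 4.87 RPKM after HLU (SD, n = 8 per group).

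The promoters of Mrp63, Mrpl36 and Mrps12, which had the 3 lowest p-values, are shown beside that of Mrpl12, which varied widely between mice. Each is the 150 bases before the transcription start in the RefSeq table for GRCm38.p6, written 5′ to 3′ on the gene's strand, with matches to the motifs searched in capitals. The places are chr14:57826089-57826238 on the plus strand for Mrp63, chr13:73330859-73331008 on the plus strand for Mrpl36, chr7:28741822-28741971 on the minus strand for Mrps12 and chr11:120484487-120484636 on the plus strand for Mrpl12.
Mrp63: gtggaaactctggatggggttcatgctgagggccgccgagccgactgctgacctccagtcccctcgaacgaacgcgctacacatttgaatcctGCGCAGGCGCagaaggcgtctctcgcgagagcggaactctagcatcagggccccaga
Mrpl36: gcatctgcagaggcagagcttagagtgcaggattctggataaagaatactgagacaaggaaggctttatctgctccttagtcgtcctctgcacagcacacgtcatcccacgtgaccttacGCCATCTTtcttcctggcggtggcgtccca
Mrps12: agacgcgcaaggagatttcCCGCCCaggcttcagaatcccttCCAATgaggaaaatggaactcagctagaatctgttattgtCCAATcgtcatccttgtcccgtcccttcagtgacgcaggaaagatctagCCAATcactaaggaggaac
Mrpl12: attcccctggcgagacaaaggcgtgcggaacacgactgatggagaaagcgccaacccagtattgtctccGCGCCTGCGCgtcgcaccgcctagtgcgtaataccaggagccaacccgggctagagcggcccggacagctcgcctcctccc
The capitals mark a match to the NRF1-type motif (GCGCA, any base, then GCGC) that begins 57 bases before the start of Mrp63 and 81 bases before that of Mrpl12, where it lies on the minus strand. In Mrpl36 they mark a YY1-type match (AAGATGGC, on the minus strand) that begins 30 bases before the start. In Mrps12 they mark an SP-type match (GGGCGG, on the minus strand) at 131 bases and CCAAT boxes at 108, 68 and 19 bases before the start. A match describes the letters and does not show that a factor binds.

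Promoters were found for 65 of the 74 genes, and the 250 bases before the start were searched on both strands. The table holds 27025 genes and was not limited to the features tested in this bone, so the shares over all its genes are not matched for expression. NRF1, GABP (an ETS factor) and YY1 are known regulators of nuclear genes for mitochondrial proteins. The NRF1-type motif was in 10 of 65 members (15.4%) and in 4.2% of all genes of the table. The ETS motif CCGGAAG was in 16 (24.6%) beside 7.8%, and the YY1-type motif in 4 (6.2%) beside 1.8%. The SP-type motif was in 32 (49.2%) beside 35.4%, the CCAAT box in 24 (36.9%) beside 37.5% and the TATA box TATAAA in 5 (7.7%) beside 14.3%. Of the 10 members with the NRF1-type motif, 9 were named for the large and 1 for the small subunit, which had 41 and 24 genes in the table. The median GC content of these 250 bases was 58.4% for the members and 52.0% for all genes, and the motifs are themselves rich in G and C.

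**Figure D2:**
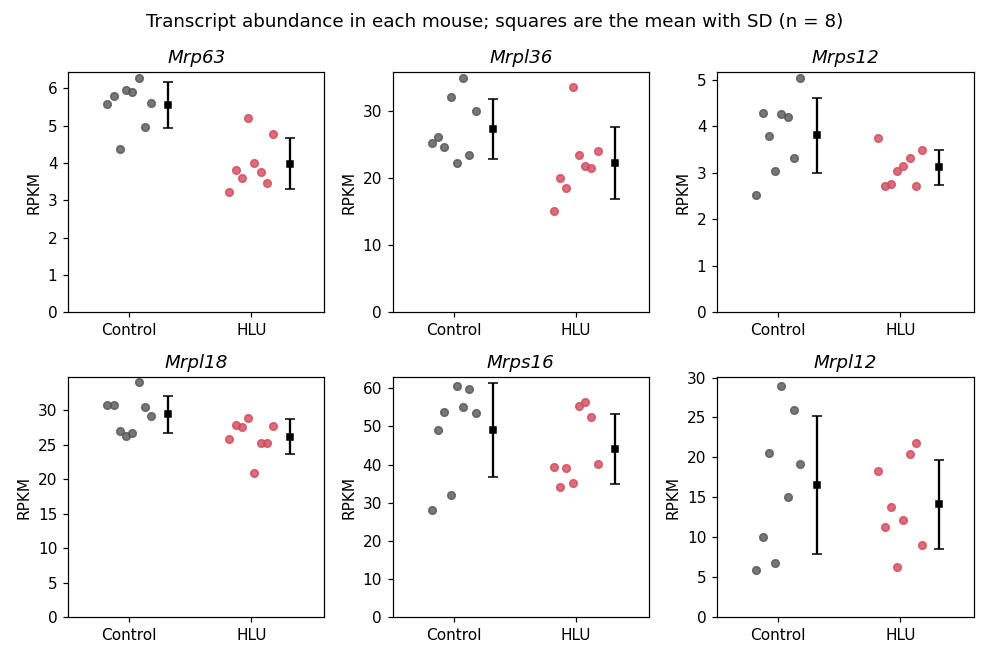
Transcript abundance (RPKM, linear axis from 0) of 6 genes in each control and HLU mouse (points), with the group mean and SD as black squares and bars (n = 8). Mrp63 shows 6 of 8 HLU mice below every control mouse, whereas Mrps16 and Mrpl12 spread as widely within each group as between groups.

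The other genes among the 12 with the lowest p-values did not pass the threshold. Mrps12, the counterpart of S12 at the decoding centre, ranged from 2.52 to 5.04 RPKM in control (median 3.99) and from 2.72 to 3.74 RPKM in HLU mice (median 3.08). All 8 HLU mice were under the control median but none was below every control, because Control 1 had the lowest value of all. The log2 fold change was -0.26 (SE 0.14, limma unadjusted p = 0.0732). Mrps12 starts 172 bases from Sars2, the mitochondrial seryl-tRNA synthetase, which is transcribed the other way. Sars2 was at 2.14 ± 1.27 RPKM in control mice and 1.91 ± 0.659 RPKM after HLU (SD, n = 8 per group), a difference of 0.04 on the log2 scale (SE 0.39). Its levels correlated with those of Mrps12 at r = 0.42 over 16 mice centred within groups, at -0.33 without the 3 libraries that stood apart, and at -0.21 after the GC trend described below was removed.

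Mrpl18 lay between 26.3 and 34.1 RPKM in control mice (median 29.8) and between 20.9 and 28.9 RPKM in HLU mice (median 26.7). Every HLU mouse was below the control median, 4 were below every control mouse, and HLU 5 was the lowest. The log2 fold change was -0.17 (SE 0.09, limma unadjusted p = 0.075, exact permutation p = 0.0225). Mrps17, the counterpart of S17, ranged from 4.1 to 5.85 RPKM in control and from 3.7 to 5.17 RPKM in HLU mice with an exact permutation p of 0.0493, and its log2 fold change of -0.19 was under 1.2-fold. These 2 genes, Mrp63 and Mrpl36 made up the 4 with a permutation p under 0.05.

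The remaining 7 of the 12 were again large and small subunit genes mixed, with log2 fold changes from -0.29 (Mrpl28, counterpart of L28) to -0.16 (Mrps35, a mitochondria-specific small subunit protein). Between them were Mrpl52 at -0.24, Mrpl47 beside the exit tunnel at -0.23, Mrpl40 of the central protuberance and Mrps22 of the small subunit each at -0.21, and Mrps2 at -0.19. Their unadjusted limma p-values ran from 0.0931 to 0.157. In Mrpl28 all 8 HLU mice were below the control median of 10.1 RPKM, but none was below the lowest control mouse at 5.27 RPKM.

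The second comparison set the large subunit against the small subunit. The median log2 fold change was -0.10 for the 47 large and -0.10 for the 27 small subunit genes, with 39 and 24 lower in HLU mice, a split that moved with the scaling as above. A score per mouse was the average of log2(RPKM + 0.1) over the genes, where the 16-mouse mean of a gene was first subtracted from its values. The large subunit score was 0.05 ± 0.20 in control and -0.05 ± 0.10 in HLU mice, and the small subunit score was 0.05 ± 0.20 and -0.05 ± 0.11 (SD, n = 8 per group). Within a mouse the 2 scores differed by at most 0.09, and this difference averaged 0.00 ± 0.04 in control and 0.00 ± 0.05 in HLU mice. Summed over genes, the large subunit transcripts amounted to 655 ± 61.2 RPKM in control and 605 ± 21.2 RPKM in HLU mice, and the small subunit transcripts to 282 ± 32.1 and 262 ± 19.3 RPKM. The values of the groups overlapped for both sums. Counting Mrps30 and Mrps18a, which sit in the large subunit in the structure of the mammalian ribosome, as large and leaving out Mrps36 gave medians of -0.10 for 49 and -0.12 for 24 genes.

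The lists by place in the ribosome are small, so that at the shares over all features (4.76% lower and 1.11% higher) few or no calls would be seen in any list of their size. In them, 0 of 4 genes of the stalk and its base, 0 of 4 of a large subunit core list, 0 of 6 in the central protuberance, 0 of 6 around the exit tunnel, 0 of 7 in the small subunit head and 0 of 3 at the decoding centre and mRNA path were past the threshold in either direction. Their median log2 fold changes were -0.09, -0.08, -0.12, -0.10, -0.08 and -0.21. The stalk genes were Mrpl10 (log2 fold change -0.17), Mrpl11 (0.07), Mrpl12 (-0.13) and Mrpl53 (-0.05). In the core list, Mrpl2, Mrpl3, Mrpl4 and Mrpl16 had 0.04, -0.12, -0.04 and -0.12 (log2 fold change). At the decoding side Mrps5, Mrps12 and Mrps24 had log2 fold changes of -0.05, -0.26 and -0.21. The 2 genes past the threshold fell 1 each among the 30 genes of large subunit place with a bacterial counterpart (Mrpl36) and the 19 without one (Mrp63). Of the small subunit genes, 0 of 16 conserved and 0 of 8 mitochondria-specific ones passed, and these counts too read against the same small shares. Of 12 members known from inherited human mitochondrial disease 0 passed, with a median log2 fold change of -0.12.

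The S18 family has 3 members in mammals that descend from 1 bacterial protein, and only 1 of them occupies the bacterial site. Mrps18c was the most abundant, at 12.5 to 20.8 RPKM in control (median 16) and 11.3 to 18.2 RPKM in HLU mice (median 14.7). Mrps18b had 3.44 to 7 RPKM and 3.72 to 6.31 RPKM, and Mrps18a 2.37 to 5.28 RPKM and 2.67 to 4.8 RPKM in control and HLU mice. Mrps18c was thus above both others in every mouse, and the ranges of Mrps18a and Mrps18b overlapped. Between mice, Mrps18a followed Mrps18b (r = 0.84, Spearman's rho = 0.76, 16 mice centred within groups), whereas Mrps18c had r = -0.39 with Mrps18a and r = -0.10 with Mrps18b. After removal of the GC trend the same values were 0.44, 0.11 and 0.73, and over the 13 mice without HLU 4, Control 4 and Control 1 they were 0.62, -0.61 and -0.13. Mrps18c starts 29 bases from Helq and Mrps18b 45 bases from Ppp1r10, each on the other strand.

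The third question was whether the genes varied together between mice. Within groups the SD of log2 level ranged from 0.13 (Mrps5) to 0.90 (Mrpl4) with a median of 0.26, beside 0.43 over all features tested. Over the 2701 pairs of members the median correlation between mice was 0.14, with 59.9% of pairs above 0, beside a median of 0.04 and 53% over all pairs of features. Pairs within the large subunit, within the small subunit and across the subunits had medians of 0.14, 0.08 and 0.16. Pairs of cytosolic ribosomal protein genes had a median of 0.33. Without HLU 4, Control 4 and Control 1 the median over pairs of members was 0.05, with 52.8% of pairs above 0, beside 0.05 and 53.8% over all pairs of features, so the higher value among members rested on these 3 mice. The medians within the large subunit, within the small subunit and across the subunits were then 0.04, 0.05 and 0.06, and that of the cytosolic ribosomal protein genes was 0.32. These correlations rest on 16 mice, which share library depth, cell composition and base composition effects, and are given as a description.

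The members did not behave as 1 block. Against the mean of the other members, 23 genes had a correlation above 0.7 and 20 had a correlation below 0. The highest were Mrps7 (r = 0.94), a head protein, Mrps34 (r = 0.93), a mitochondria-specific small subunit protein, and Mrpl37 (r = 0.92), a mitochondria-specific large subunit protein. The lowest were Mrps25 (r = -0.69), Mrpl32 (r = -0.63) and Mrps30 (r = -0.57). Mrps7 ranged from 7.25 to 21.6 RPKM in control mice, and Mrpl32 from 21 to 60 RPKM. The lowest correlation of any pair was that of Mrpl32 with Mrps24 (r = -0.88), and the highest that of Mrpl14 with Mrps7 (r = 0.97), and they were -0.89 and 0.92 without the 3 libraries that stood apart. Over those 13 mice 9 genes had a correlation above 0.7 with the other members and 27 had one below 0, with Mrps7 at 0.82, Mrps34 at 0.66, Mrpl37 at 0.78, Mrps25 at -0.39, Mrpl32 at -0.77 and Mrps30 at -0.53.

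The order went along with the GC content of the transcript. GC content of the longest coding transcript in GENCODE M21 ran from 39.6% (Mrps14) to 60.6% (Mrps34). Over the 74 genes the within-group SD correlated with it at r = 0.59 (Spearman's rho = 0.55), and the correlation with the other members at r = 0.59 (rho = 0.62). The SD also correlated with the median number of reads on the gene, at r = -0.55 (rho = -0.60). The 16 genes with 55% GC or more had a median SD of 0.55, and the 14 genes under 45% had one of 0.22. Without HLU 4, Control 4 and Control 1 these medians were 0.36 and 0.22, the SD had r = 0.39 with GC content and -0.55 with the number of reads, and the correlation with the other members had r = 0.35 with GC content. The log2 fold change between HLU and control had r = -0.06 and rho = -0.11 with GC content. Genes are not independent replicates, and these correlations across genes are a description.

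**Figure D3:**
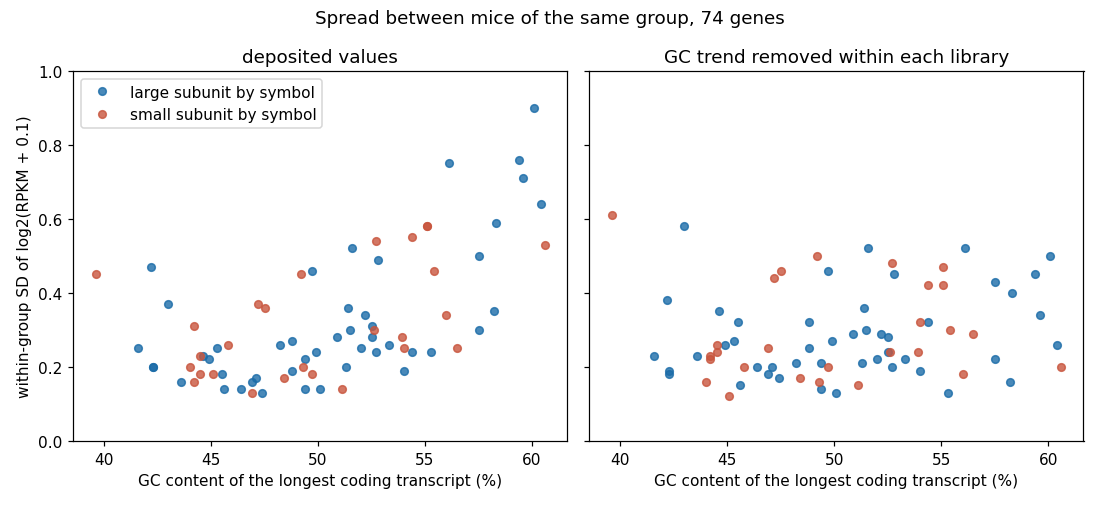
Within-group SD of log2(RPKM + 0.1) of each of the 74 genes against the GC content of its longest coding transcript (%), from the deposited values (left) and after the trend with GC was removed within each library (right), with colours for the subunit in the symbol. The highest SD is 0.90 (Mrpl4) on the left and 0.61 (Mrps14) on the right.

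A slope of log2 level on GC content was taken for each library over the 12099 features with a GC value. It ranged from -0.66 (HLU 4) to 0.46 (Control 5) log2 per 10% GC, and averaged 0.00 ± 0.41 in control mice and 0.00 ± 0.33 after HLU (SD, n = 8 per group). The 3 lowest slopes were those of HLU 4, Control 4 and Control 1, and the highest those of Control 5 and Control 7. In the same order the score of the GC-rich members (55% or more) was -0.79, -0.70, -0.75, 0.66 and 0.60, and that of the members under 45% was 0.13, 0.02, 0.02, 0.02 and -0.08. Mrpl12, the mobile stalk protein, which has 56.1% GC, was at 6.28, 6.75 and 5.9 RPKM in the first 3 of these mice and at 28.9 and 26 RPKM in the last pair. Mrpl4 was at 2, 2.88 and 4.42 RPKM and at 15.7 and 16.4 RPKM.

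**Figure D4:**
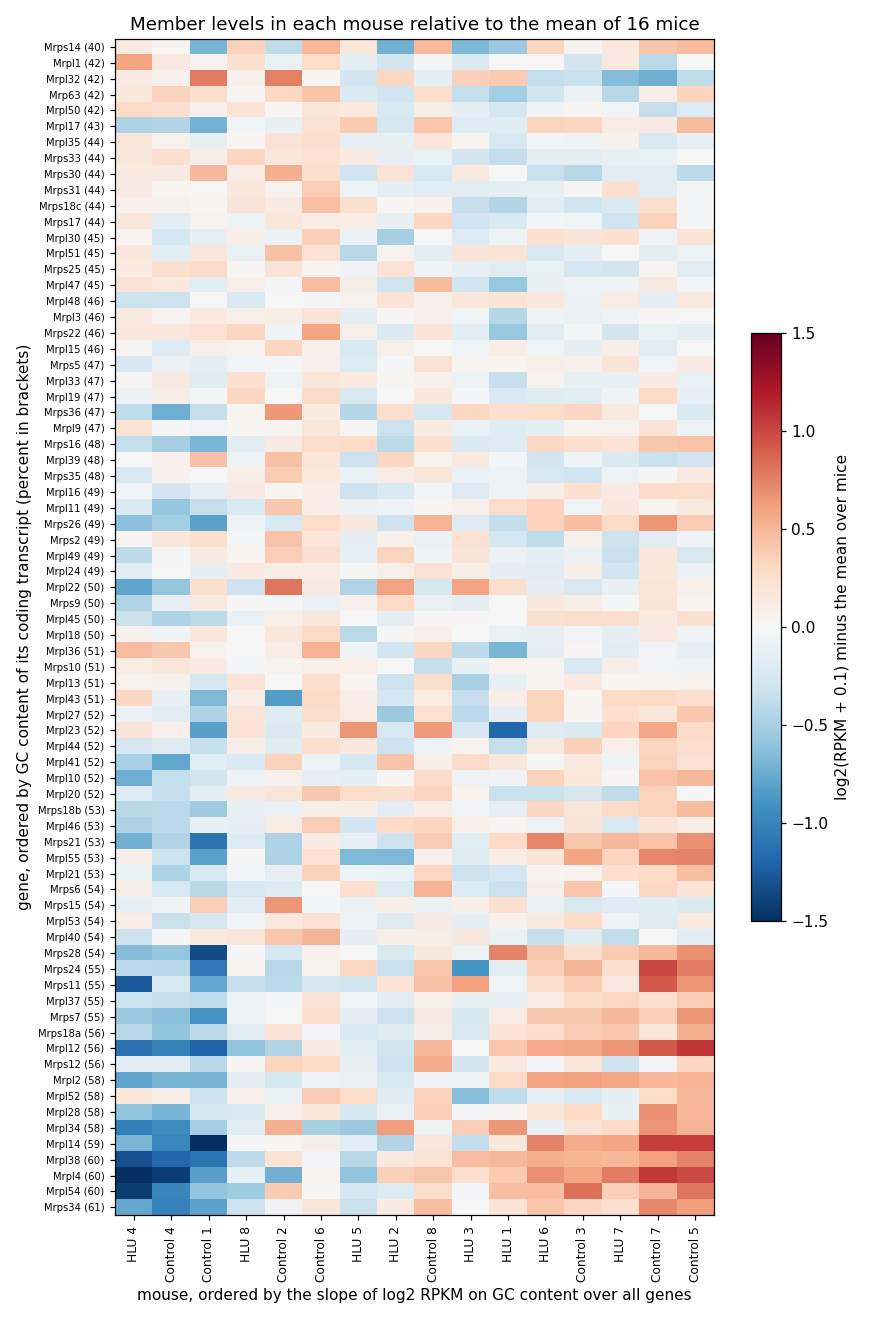
Log2(RPKM + 0.1) of each gene in each mouse minus its mean over the 16 mice (red above, blue below, scale cut at 1.5 in either direction), with genes in rows ordered by GC content and mice in columns ordered by the GC slope of the library from HLU 4 (-0.66) to Control 5 (0.46 log2 per 10% GC). The GC-rich genes at the bottom turn from blue to red along this order, and control and HLU mice are mixed in it.

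When a quadratic trend with GC content was removed within each library, with the mean of the library kept, the median SD of the 16 GC-rich members was 0.32 and that of the 14 GC-poor members was 0.23. The median correlation between pairs of members became 0.30, beside 0.13 for all pairs of features with a GC value, and 70.3% of pairs were above 0. For pairs of 1 GC-rich and 1 GC-poor member (at or above, and below, the median GC content of the members) the median was 0.03 before and 0.27 after removal, for pairs of GC-poor members 0.12 and 0.45, and for pairs of GC-rich members 0.45 and 0.17. Pairs within the large subunit, within the small subunit and across subunits then had medians of 0.30, 0.30 and 0.31. Pairs of cytosolic ribosomal protein genes had 0.38. With the trend removed, 29 genes had a correlation above 0.7 with the other members and 10 had one below 0. Mrp63 went from -0.30 to 0.87 and Mrps25 from -0.69 to 0.31, whereas Mrps10 had -0.52 and -0.56. These values also rested on HLU 4, Control 4 and Control 1. Without these mice the median over pairs of members after removal was 0.08, beside 0.11 for all pairs of features with a GC value, and 12 genes were above 0.7 and 21 below 0. Mrp63 then had 0.03 before and 0.71 after removal, Mrps25 -0.39 and 0.06, and Mrps10 0.14 and 0.18. Mrps11 and Mrpl46 overlap each other and start 412 bases apart on opposite strands, so reads in the overlap could have been counted on either. Their correlation over the 16 mice was 0.57 before and 0.29 after removal, and over the 13 mice 0.19 and 0.05. Of the 74 genes 40 overlapped another annotated gene and 32 had a coding gene starting within 1000 bases on the other strand (GENCODE M21), and whether the counting used strand is not given in the sources used here.

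Removal of the GC trend left the comparison between the groups similar for the leading genes. Mrp63 had a log2 fold change of -0.48 (limma unadjusted p = 0.000263, adjusted p = 0.433) and Mrpl36 one of -0.31 (unadjusted p = 0.0399, adjusted p = 0.436). Mrpl28, at -0.29 (unadjusted p = 0.00466), and Mrpl54, at -0.30 (unadjusted p = 0.0292), also passed the unadjusted threshold, which made 4 lower and 0 higher of 74 genes. The share over all features in that fit was 8.2% lower and 1.3% higher. The mean was higher in HLU mice for 11 of the 74 genes, beside 31.1% of all features.

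As a whole the member score was lowest in Control 1 (-0.27), Control 4 (-0.25) and HLU 4 (-0.24) and highest in Control 5 (0.22) and Control 7 (0.21). The 8 HLU mice spanned -0.24 to 0.08, inside the range of the control mice. The large and small subunit scores rose and fell together (r = 0.96, rho = 0.95, 16 mice centred within groups). A score over all features tested also varied between mice, with an SD of 0.12 in control and 0.09 in HLU mice, beside 0.20 and 0.10 for the members. It was not taken out of the scores, so part of any relation between 2 scores may be shared by all features. The member score followed the GC slope of the library (r = 0.84, rho = 0.75, and r = 0.75 without the 2 mice farthest from the median slope). It also followed the scores of the nuclear-encoded respiratory chain genes (r = 0.89, rho = 0.89, and 0.79 without 2 mice), of the mitochondrial aminoacyl-tRNA synthetases (r = 0.91, rho = 0.77, and 0.81), of the assembly factors (r = 0.89, rho = 0.80, and 0.80), of the translation factors (r = 0.85, rho = 0.70, and 0.73) and of the cytosolic ribosomal proteins (r = 0.83, rho = 0.69, and 0.71). For the transcripts of the mitochondrial genome the values were weaker (r = -0.20, rho = -0.11, and -0.10). The 3 mice with the lowest GC slopes stood apart from the other 13 in the member score, and these relations rested in part on them. Without the 3 mice r was 0.54 with the GC slope, 0.82 with the respiratory chain, 0.61 with the aminoacyl-tRNA synthetases, 0.63 with the assembly factors, 0.38 with the translation factors, 0.45 with the cytosolic ribosomal proteins and 0.84 between the large and small subunits. Among 21 relations computed, the member score had r = 0.44 with the erythroid score, -0.20 with the granulocyte score, 0.05 with the osteocyte score, 0.43 with the slow muscle score and 0.70 with the adipocyte score over the 16 mice, and -0.08, -0.58, 0.06, 0.44 and 0.62 over the 13. With the macrophage score it had r = -0.46 over the 16 and -0.70 over the 13 mice, with the B cell score -0.40 and -0.62, and with the megakaryocyte score 0.45 and -0.40. The respiratory chain score rests on 26 genes, since the others of the 74 in its list were not found among the features. For the member score after removal of the GC trend, r over the 16 mice was 0.82 with the GC slope and 0.89 with the respiratory chain. It was 0.91 with the aminoacyl-tRNA synthetases, 0.88 with the assembly factors, 0.84 with the translation factors and 0.82 with the cytosolic ribosomal proteins. That removal kept the mean of each library, so these values cannot separate the part of the GC slope. The part of the GC slope and of cell composition in these relations was not tested.

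**Figure D5:**
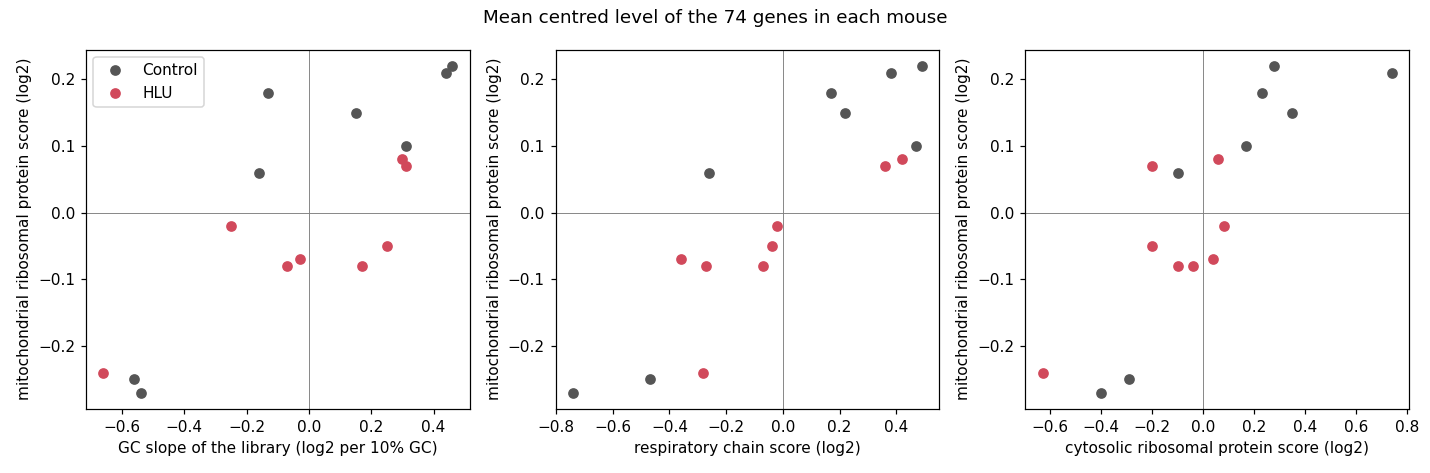
Member score of each mouse (mean over the 74 genes of centred log2(RPKM + 0.1)) against the GC slope of its library, the respiratory chain score and the cytosolic ribosomal protein score, with 1 point per mouse in grey for control and red for HLU. Control 1, Control 4 and HLU 4 have the 3 lowest member scores (-0.27, -0.25 and -0.24), and control mice span a wider range than HLU mice.

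Other genes of mitochondrial translation were taken from lists chosen by function, whose counts stand beside the 4.76% of all features that were lower and the 1.11% that were higher. The 6 mitoribosomal proteins with other names (Dap3, Aurkaip1, Chchd1, Ptcd3, Ict1 and Gadd45gip1) gave 0 calls, and all 6 had lower means in HLU mice with a median log2 fold change of -0.10. The most abundant was Chchd1, at 82 ± 9.53 RPKM in control and 78 ± 9.05 RPKM in HLU mice, and Dap3, a GTP-binding protein of the small subunit head, had 8.52 ± 0.544 and 7.95 ± 0.558 RPKM (SD, n = 8 per group). Of 22 assembly factors 1 was lower and 0 higher, with a median of -0.11. This was Noa1, a GTPase needed for the small subunit, at 3.08 ± 0.678 RPKM in control mice and 2.37 ± 0.333 RPKM after HLU (SD, n = 8 per group), which is -0.35 on the log2 scale (SE 0.13, limma unadjusted p = 0.015, adjusted p = 0.744, exact permutation p = 0.00171).

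Of 12 translation factors 1 was lower, Tsfm, the exchange factor of the elongation factor Tu, with a log2 fold change of -0.38 (SE 0.16, limma unadjusted p = 0.0284), and the median was 0.03. Its partner Tufm had 0.07 (SE 0.35). Of 17 mitochondrial aminoacyl-tRNA synthetases 0 were higher and the median log2 fold change was -0.19. Yars2, which charges the tRNA for tyrosine, was lower, with a log2 fold change of -0.31 (SE 0.14, unadjusted p = 0.0445). Of 8 genes of mitochondrial transcription and RNA handling 0 were called, and of 6 mitochondrial proteases 0 were called. Among the proteases Afg3l2, a subunit of the m-AAA protease that matures Mrpl32, was at 22 ± 2.28 RPKM in control and 19.7 ± 2.32 RPKM in HLU mice. Of 7 regulators tested, Myc was lower (log2 fold change -0.49, SE 0.16, unadjusted p = 0.00596) and the next was Pprc1 at -0.37 (unadjusted p = 0.0651). All of these had an adjusted p of 0.744 or more (limma).

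Transcripts of the respiratory chain were also read. The list of nuclear-encoded respiratory chain and ATP synthase genes named 74, of which 26 were found among the features. Of these 26, 1 was lower (Cox6a1, log2 fold change -0.46, SE 0.18, limma unadjusted p = 0.0206) and 0 higher, with a median of -0.04. The 13 protein-coding genes of the mitochondrial genome, which the mitochondrial ribosome translates, gave 0 calls, and 11 of 13 had higher means in HLU mice with a median log2 fold change of 0.20. The highest was mt-Nd2 at 0.48 (SE 0.27, unadjusted p = 0.0941). All features with a symbol that begins with mt- took 5.5% to 16.4% of the library, so that they bear on the RPKM of every other gene. Of 73 cytosolic ribosomal protein genes 10 were lower, 0 were higher and the median was -0.25, where 4.76% of all features were lower, 1.11% were higher and their median was -0.10. Rps23 had the lowest p of them, with a log2 fold change of -0.66 (SE 0.19, unadjusted p = 0.00299). Whether the cytosolic and mitochondrial sets differed from each other was not tested.

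Several lists of cell type markers differed in direction between the groups, with few members past the threshold and 0 at an adjusted p under 0.1. All 10 erythroid markers had lower means in HLU mice (median log2 fold change -0.58, 3 called), as did all 4 megakaryocyte markers (-0.62, 2 called), all 8 B cell markers (-0.36, 1 called) and all 12 proliferation genes (-0.49, 1 called), where the mean was lower for 11523 of all 16973 features. All 7 osteocyte markers had higher means (0.39, 1 called). The 8 osteoblast markers had a median of -0.08 and the 5 osteoclast markers one of 0.06, with 0 called in either list. The 5 adipocyte markers tested summed to 44.2 to 138 RPKM in control and 56.3 to 147 RPKM in HLU mice, and slow muscle genes to 6.8 to 249 RPKM in control and 8.43 to 321 RPKM in HLU mice. When the erythroid and granulocyte scores of each mouse entered the limma fit as covariates, 38 of the 74 genes were higher in HLU mice, beside 46.4% of all features, and their median log2 fold change was 0.01. In that fit 6 genes were higher at the unadjusted threshold (Mrpl2, Mrpl4, Mrpl14, Mrpl43, Mrps21 and Mrps28) and 4 were lower (Mrp63, Mrpl36, Mrpl32 and Mrps2), beside 6.52% higher and 8.98% lower among all features, and the smallest adjusted p of a member was 0.145. None of the members and 0.0884% of all features passed an adjusted p under 0.1 with 1.2-fold in that fit. Mrp63 had a log2 fold change of -0.54 and Mrpl36 one of -0.40 there. Mrpl4 had a log2 fold change of 0.74 (SE 0.32, limma unadjusted p = 0.0362) where it had -0.04 (SE 0.41) without covariates. The part of blood-forming cells in the differences between the groups was not tested beyond this fit.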

How the data were processed

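Per the labels and the study's methods, TruSeq libraries of total RNA were sequenced 8 to a lane and aligned with TopHat2, and the submitters' processing notes name mm9 and DESeq2. The counting tool, annotation and use of strand are not given in the sources used here. The methods name the TruSeq RNA Sample Preparation Kit and describe no strand-specific step. Reads where genes overlap on opposite strands could therefore have been counted on either gene. The authors deposited RPKM values per feature for each of 16 mice, and the sources used here describe no further scaling.

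The 74 genes, the gene lists and the tests were chosen with earlier results of these data known. The 16973 features that averaged 0.5 RPKM or more were compared on the scale of log2(RPKM + 0.1). The test was limma (version 3.58.1, R 4.3.3), two-sided, with a variance trend and with Benjamini-Hochberg adjustment over all of them. A fold change on this scale understates the change of low genes. The thresholds were 1.2-fold together with p under 0.05 before adjustment, or with an adjusted p under 0.1. Two-sided exact permutation tests, correlations and scores used Python 3.11.15, numpy 2.4.6, scipy 1.17.1 and pandas 2.3.3, and figures used matplotlib 3.10.9. On simulated data the fit was tested with known changes.

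Whole reads were recovered from the RPKM steps for 16973 of 16973 features tested (100%, each value within 0.05 of a whole number), and limma-voom on those reads called 2 of the 74 genes lower and 0 higher, and 183 features higher and 915 lower in all. Libraries held 7067512 to 21363584 reads, which limits low genes such as Mrpl23. Reads are not independent molecules, and mice are the replicates. GC content and gene neighbours came from GENCODE M21 (GRCm38), with Mrp63 matched as Mrpl57, and promoters from RefSeq (GRCm38.p6), which is not the build of the files.

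Genes named are the 12 with the lowest p, the 5 highest and 5 lowest levels, the 3 most and 3 least correlated with the others, the S18 family, Mrps12 with Sars2, Mrps30, Mrps36, Mrp63, the stalk, core and decoding lists, and of other lists those called or with the lowest p. Mrpl43, Mrpl54, Mrpl14, Mrpl21, Mrps6, Mrps26, Mrpl46, Ska3, Mrps14, Mrps21, Mrps28, Chchd1, Tufm and Ndufs6 were named after their values were seen. Columns of the authors' own comparisons are not in these files. The result of 1 gene of the other lists is not reported here.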

Additional observations from a re-analysis of the deposited data

Results flagged for a closer look

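Mrpl18 stood at 20.9 RPKM in HLU 5, where the nearest HLU mouse had 25.2 RPKM. Mrps22 stood at 21.8 RPKM in Control 6, where the nearest control mouse had 16.9 RPKM. Each of these mice lay farther from its group than Dixon's 95% critical value for 8 samples allows. Of 80 groups of values tested in this way 2 were picked out, where chance picks about 1 in 20.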

How the results depend on the processing

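Over the alternatives run, 0 of the 74 genes passed an adjusted p under 0.1 in any. The number lower at the unadjusted threshold (2) became 1 under median-of-ratios scaling, quantile normalization, scaling to features outside the mitochondrial genome, no variance trend, a slow muscle score as covariate and without the 2 smallest libraries, and each of these also left 1 gene at an unadjusted p under 0.05. In the same order 401, 364, 344, 804, 1407 and 863 of all features were lower and 376, 460, 392, 202, 409 and 108 higher, of 16973 to 17004 tested. The number of members lower became 4 with the erythroid and granulocyte scores as covariates, with 6 higher and 11 genes at an unadjusted p under 0.05, and 4 with the GC trend removed, with 4 genes at that p. Without the 3 libraries of lowest GC slope it was 12, with 13 genes at an unadjusted p under 0.05 and a median correlation between members of 0.05. Leaving out 1 mouse at a time gave 1 to 3 lower, 0 higher and 1 to 5 at an unadjusted p under 0.05, with 1 lower without any 1 of Control 2, Control 6, Control 8, HLU 1, HLU 2, HLU 3, HLU 6 and HLU 7, and 3 lower without Control 1, Control 4 or HLU 4. In these fits 471 to 1385 of the 16973 features were lower and 117 to 363 higher. Without Control 1, Control 4 and HLU 4 in turn, the lower features numbered 924, 777 and 645. Other settings (pseudocounts of 1 and 0.01 RPKM, no filter, a minimum of 2 RPKM, limma-voom) gave 2 lower and 0 higher. In the same order 729, 788, 1048, 629 and 915 of all features were lower, of 16973, 16973, 29628, 12084 and 16973 tested, and 172, 181, 391, 106 and 183 were higher. At an unadjusted p under 0.05 alone, the share over all features was worked out for the main fit only (6.18%). Mrpl4 reversed to 0.74 (log2) with the blood scores as covariates. The median correlation between members (0.14) was 0.21 after quantile normalization, 0.40 after scaling to features outside the mitochondrial genome and 0.30 with the GC trend removed, and 0.11 to 0.16 without 1 mouse. The median over all pairs of features was not worked out for quantile normalization, for scaling to features outside the mitochondrial genome or without 1 mouse. The member values there are thus not shown to be particular to these genes. The cause of these changes was not tested. The median log2 fold change ran from -0.18 to 0.04, and Mrp63 from -0.54 to -0.34 over 31 alternatives (limma unadjusted p 0.000132 to 0.0124). The share of higher genes among all features called moved from 18.9% to 48.4%, 55.8% and 53.3% under the 3 scalings, in the order above, and to 42.1% with the blood covariates. Without the low-value filter 391 features were higher and 1048 lower, beside 188 and 808. The GC removal, the slow muscle covariate and leaving out the 2 smallest or the 3 libraries of lowest GC slope were chosen after seeing the data.

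The replicate number as a block gave 2 lower, 0 higher and 3 genes at an unadjusted p under 0.05 by limma, beside 840 lower and 199 higher of the 16973 features. The numbers share no animal, same-numbered mice deviated together with correlations from -0.17 to 0.51, above 0.1 in 3 of 8 pairs, and 1 of 8 control mice correlated best with its own number, so the pairing was not used. A planned covariate of skeletal muscle genes was not run, because 0 of its 11 genes are listed here.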
